A study of Sus scrofa with 9 samples.

Results

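A set of 10 genes of the Notch pathway was followed in porcine embryonic fibroblasts, cultured matrix-producing cells derived from the pig embryo. They were the ligand genes JAG1 and JAG2, the receptor genes NOTCH1, NOTCH2 and NOTCH3, and the target genes HES1, HES4, HEY1, HEYL and NRARP. The set was chosen by pathway membership and selected on measured values, since lower levels of JAG1, NOTCH3 and HES4 at both treated times were part of the choice. Levels against 0 h are therefore given as a description with no test, and only the difference between the treated times and the genes outside the set were tested. Of the 10 genes, 7 were matched in the files by symbol, among 30477 gene IDs of which 14864 carry a symbol. JAG2, NOTCH1 and NRARP were not analysed here. JAG1, NOTCH2, NOTCH3, HES1, HES4 and HEY1 passed the filter on low values, which asks for 3 or more libraries with an FPKM of 1 or higher, as did 11063 genes in all. HEY1 passed it through its 0 h libraries alone, and HEYL did not pass.

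The untreated control was taken at 0 h, and the treated cells at 48 h and 72 h of insulin, a hormone that drives nutrient uptake and growth. Each time had 3 libraries, described by the submitters as biological replicates of thawed and cultured fibroblast lines. The labels do not tie them to separate embryos or lines, so p-values measure the spread between these samples, which may be technical. Genotype, breed, embryo age and insulin dose are not given in the labels. No untreated culture of 48 h or 72 h was analysed here, so insulin and time in culture cannot be told apart.

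Notch receptors are read by contact between cells. A ligand of the Jagged or Delta family on one cell binds a receptor on its neighbour, the receptor is cut by ADAM metalloproteases and then by gamma-secretase, and the freed intracellular part enters the nucleus. There it joins the DNA-binding protein RBPJ and a Mastermind coactivator and switches on target genes, among them the HES and HEY families of basic helix-loop-helix repressors. In connective tissue the pathway is best known from the mural cells of blood vessels, where NOTCH3 and JAG1 take part in their maturation, and from its restraint of several differentiation programmes.

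FPKM values, which are scaled to gene length and so allow levels of different genes to be compared, were available without read counts. Relative to 0 h replicate 1, the steps between low values gave a depth of 1.28 for 48 h replicate 3 (estimated from 11 genes) and of 0.981 to 1.02 for the rest. Deposited FPKM sums were 487858 to 497665 at 0 h, 524992 to 563656 at 48 h and 505022 to 525471 at 72 h. Of 10 fibroblast markers, 9 were in the files, and their summed level was 21145 to 22057 FPKM at 0 h, 18873 to 20176 at 48 h and 21555 to 21949 at 72 h. That sum was mostly COL1A1, COL1A2 and VIM, and its members moved in both directions. At 48 h 5 were higher and 3 lower, and at 72 h 5 were higher and 1 lower (limma adjusted p). Of all tested genes 27.6% were higher and 22.4% lower at 48 h, and 23% and 22.5% at 72 h. PDGFRA rose from 9.34 to 36.4 FPKM in mean at 72 h and LUM from 12.7 to 48.3, while COL1A2 fell from 5680 to 4953. PTPRC, the pan-leukocyte marker, and CDH5, the endothelial cadherin, were listed at 0.00 in all 9 libraries, and the epithelial marker EPCAM at no more than 0.08.

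JAG1 (ENSSSCG00000007067, chromosome 17 at 19591248 to 19629659 of Sscrofa11.1, protein-coding) encodes the Jagged ligand that presents itself to Notch receptors of adjacent cells. It was the most abundant Notch ligand measured and the member with the greatest drop at 48 h. The 0 h libraries held 35.1, 38.3 and 36.5 FPKM, the 48 h libraries 7.13, 7.95 and 10.4, and the 72 h libraries 9.02, 6.71 and 8.21. Every treated library lay far below every control library, while the treated times overlapped. The mean was 36.6 ± 1.61 FPKM in control cells, 8.49 ± 1.70 at 48 h and 7.98 ± 1.17 after 72 h (SD, n = 3), so that it was 4.31-fold and 4.59-fold lower than at 0 h. On the log2(FPKM + 1) scale, on which all log2 changes are given, the differences from 0 h were -2.00 ± 0.13 (SE) and -2.07 ± 0.13. At 0 h the JAG1 level stood above 82.0% of the tested genes, against 43.7% at 48 h and 42.6% at 72 h. In a bulk culture, fewer cells that express a gene and less RNA per cell cannot be told apart, which holds for every gene described here.

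**Figure D1:**
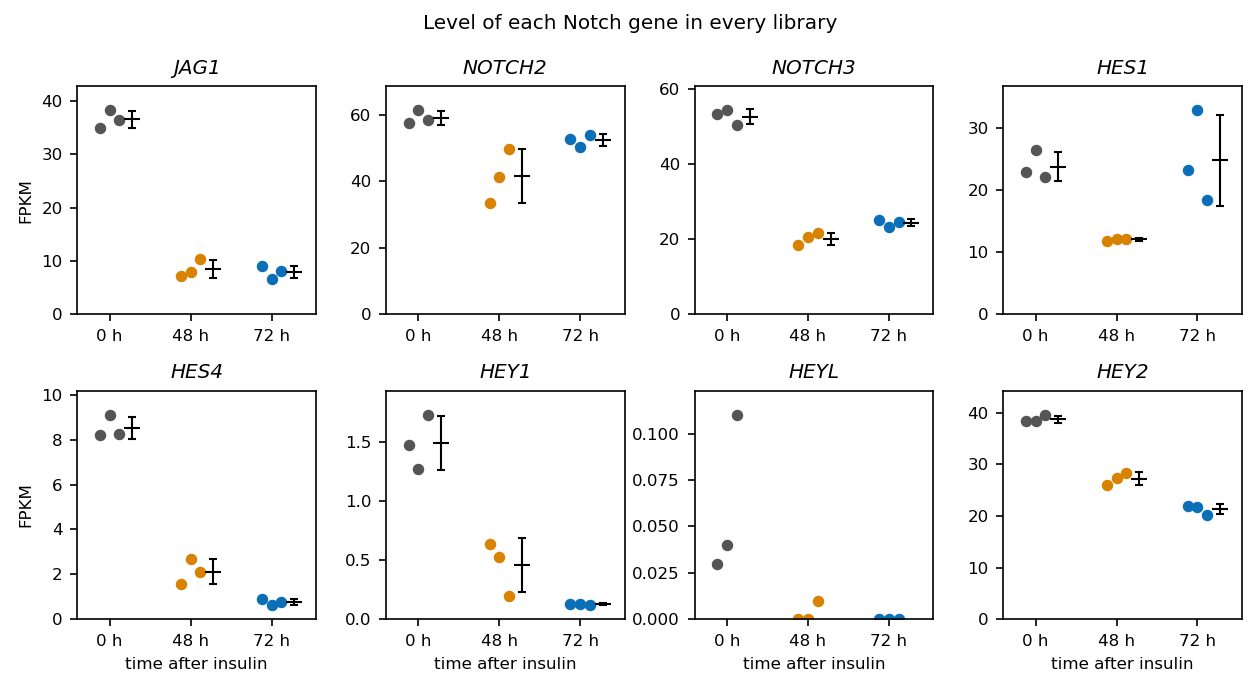
Level in FPKM (vertical axes, linear from 0, with a scale of its own for each gene) of the 7 measured genes and of HEY2 in every library at 0 h, 48 h and 72 h after insulin. Points are libraries and the black bar is the mean with its SD (n = 3, not drawn for HEYL, which was listed at 0.00 in most treated libraries); JAG1 and HES4 lie far below control at both times, while HES1 is low at 48 h and back among the control values at 72 h.

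NOTCH3 (ENSSSCG00000025176, chromosome 2 at 62364507 to 62402348, protein-coding) encodes a receptor with a leading role in smooth muscle and pericytes. Control libraries held 53.3, 54.4 and 50.5 FPKM, the 48 h libraries 18.5, 20.5 and 21.6, and the 72 h libraries 25.2, 23.4 and 24.5. No library of one time overlapped those of another, and the lowest values were those of 48 h. Means were 52.7 ± 1.97 FPKM at 0 h, 20.2 ± 1.59 at 48 h and 24.4 ± 0.938 at 72 h (SD, n = 3). They were 2.61-fold and 2.16-fold below control, with log2 differences of -1.34 ± 0.07 and -1.08 ± 0.07 (SE).

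NOTCH2 (ENSSSCG00000006709, chromosome 4 at 100951522 to 101152348, protein-coding) encodes another receptor, measured in the same bulk cultures as NOTCH3. It held 57.5, 61.3 and 58.3 FPKM at 0 h, 33.4, 41.3 and 49.7 at 48 h, and 52.8, 50.3 and 53.9 at 72 h. The 48 h libraries were spread widely, and the highest of them lay just under the lowest of 72 h. The differences from 0 h were -0.52 ± 0.11 at 48 h and -0.17 ± 0.11 at 72 h (log2, SE), or 1.42-fold and 1.13-fold lower in mean FPKM. NOTCH2 has the longest span of the members, 200827 bases with introns. After correction of every library for its dependence on gene span, the log2 difference at 48 h was -0.36, and without 48 h replicate 1 it was -0.37.

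NOTCH4, the remaining measured receptor gene and one best known from endothelium, was listed at 0.04 to 0.14 FPKM throughout. The 3 measured receptor genes summed to 112 ± 3.54 FPKM at 0 h, 61.7 ± 9.72 at 48 h and 76.8 ± 2.61 after 72 h. The NOTCH3 share was 47.2% ± 0.842 in control cells, then 33.0% ± 2.66 at 48 h and 31.7% ± 0.518 after 72 h (SD, n = 3). Both treated times thus held a smaller share of NOTCH3 among the measured receptor transcripts than any control library, in which the lowest share was 46.4%.

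HES4 (ENSSSCG00000035420, chromosome 6 at 63351593 to 63356690, protein-coding) encodes a HES-family repressor that the mouse genome lacks. Its level was 8.21, 9.09 and 8.25 FPKM at 0 h, 1.56, 2.66 and 2.11 at 48 h, and 0.89, 0.65 and 0.75 at 72 h. The 3 times formed separate steps downward with no overlap. From a mean of 8.52 ± 0.497 FPKM it stood at 2.11 ± 0.550 at 48 h and 0.763 ± 0.121 at 72 h (SD, n = 3), 4.04-fold and 11.2-fold below control. The log2 differences were -1.63 ± 0.12 and -2.43 ± 0.12 (SE). With a pseudocount of 0.1 in place of 1, which compresses low levels less, they were -1.99 and -3.33.

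HES1 (ENSSSCG00000031356, chromosome 13 at 131135970 to 131137865, protein-coding) encodes the best-studied HES repressor, which also represses its own gene. It took another course. Libraries of 0 h held 22.9, 26.5 and 22.1 FPKM, those of 48 h 11.8, 12.2 and 12.2, and those of 72 h 23.2, 32.9 and 18.4. The 48 h libraries agreed closely and lay below all others, whereas the 72 h libraries were the most scattered and overlapped the control. Mean levels were 23.8 ± 2.37, 12.1 ± 0.217 and 24.8 ± 7.35 FPKM (SD, n = 3). The log2 difference from 0 h was -0.92 ± 0.16 at 48 h and 0.02 ± 0.16 at 72 h (SE), and -1.28 at 48 h with the span trend removed.

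HEY1 (ENSSSCG00000006159, chromosome 4 at 56859640 to 56863807, protein-coding), which encodes a repressor of the HEY family, was near the limit of the filter from the start. It held 1.48, 1.27 and 1.73 FPKM at 0 h, 0.64, 0.53 and 0.20 at 48 h, and 0.13, 0.13 and 0.12 at 72 h. Each time lay below the one before without overlap. The log2 differences from 0 h were -0.78 ± 0.13 and -1.14 ± 0.13 (SE), and -1.61 and -2.80 with a pseudocount of 0.1. HEYL (ENSSSCG00000038956, chromosome 6 at 95442655 to 95459597), another HEY-family gene known from mural cells, was listed at 0.03, 0.04 and 0.11 FPKM at 0 h, at 0.00, 0.00 and 0.01 at 48 h, and at 0.00 in each 72 h library, too low for any comparison.

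In order of level at 0 h, NOTCH2 stood above NOTCH3, JAG1, HES1, HES4, HEY1 and HEYL, and no neighbours in that order overlapped. At 48 h HES1 stood above JAG1, again with no overlap between neighbours. At 72 h HES1 and NOTCH3 overlapped, and NOTCH2 remained the highest and HEYL the lowest.

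All 6 tested members had each 48 h library below each control library, a state found in 27.6% of the tested genes. At 72 h this held for 5 of the 6, with HES1 the exception, against 30.4% of the tested genes. Because such values chose the members, nothing is read from these counts.

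**Figure D2:**
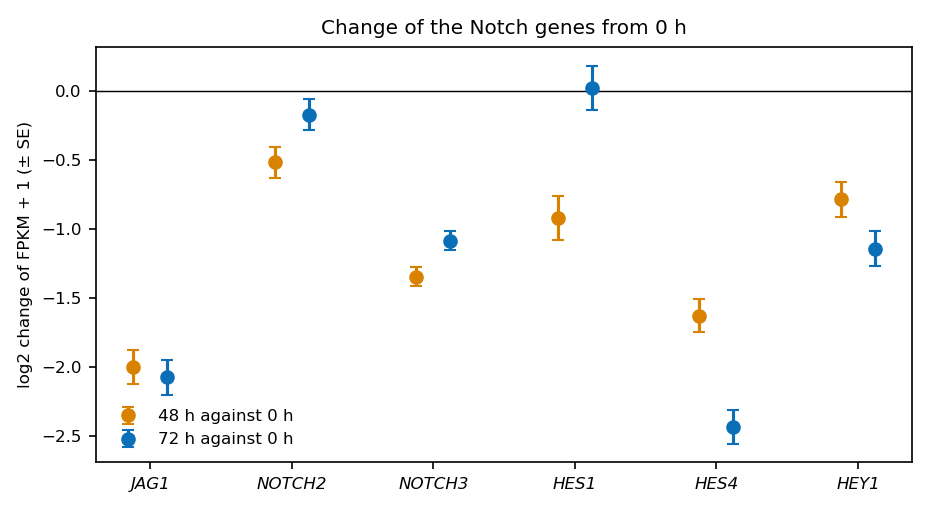
Difference from 0 h on the log2(FPKM + 1) scale (vertical axis) for the 6 members that passed the filter, at 48 h and at 72 h, with the SE from limma. JAG1 is near -2 at both times, HES4 goes further down from -1.63 to -2.43, and HES1 returns from -0.92 to 0.02.

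Ratios within a library do not depend on how libraries are scaled to each other, and they showed how unevenly the members moved. NOTCH2 to NOTCH3 was 1.08 to 1.15 at 0 h, 1.81 to 2.30 at 48 h and 2.09 to 2.20 at 72 h. The ratio of NOTCH3 to JAG1 was 1.38 to 1.52 at 0 h, 2.08 to 2.59 at 48 h and 2.79 to 3.48 at 72 h. For both, all treated libraries exceeded all control libraries. HES1 to HES4 was 2.68 to 2.92 at 0 h, 4.58 to 7.57 at 48 h and 24.6 to 50.6 at 72 h, so that every 72 h library exceeded every earlier one. These ratios include genes chosen for their fall and are a description.

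**Figure D3:**
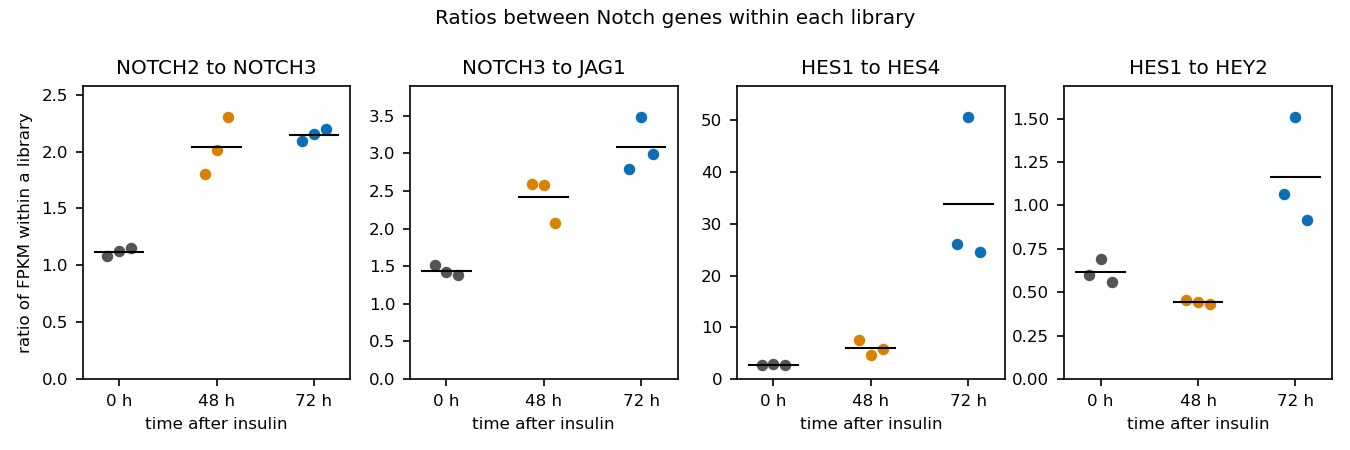
Ratio of FPKM between a pair of genes within each library (vertical axes, linear from 0) at 0 h, 48 h and 72 h. Points are libraries and lines are means of 3; HES1 to HES4 is below 3 in every control library and above 24 in every 72 h library, while HES1 to HEY2 is lowest at 48 h.

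The difference between the treated times did not itself choose the members, but it shares its 48 h and 72 h values with the falls that did. It is thus not fully independent of the choice. It was tested in limma over all 11063 genes. HES1 rose between 48 h and 72 h by 0.95 ± 0.16 on the log2 scale (2.06-fold in mean FPKM; limma adjusted p = 0.00215), higher in 3 of 3 libraries. HES4 fell by 0.81 on the log2 scale (SE 0.12, 2.76-fold; limma adjusted p = 0.00118), lower in 3 of 3. Both calls were kept under each of the 20 other settings for HES1 and the 19 that retained HES4. NOTCH3 rose by 0.26 ± 0.07 (limma adjusted p = 0.0192), but the call was lost without 72 h replicate 1 (adjusted p = 0.0668) or 72 h replicate 3 (0.0509). NOTCH2 rose by 0.35 ± 0.11 (limma adjusted p = 0.0445). That call was lost without any single library other than 48 h replicate 3, without the filter, with the span trend removed (0.24, adjusted p = 0.0575) and with no trend in the prior variance. Its change without 48 h replicate 1 was 0.20 (adjusted p = 0.103).

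JAG1 differed between the treated times by -0.07 ± 0.13 (limma adjusted p = 0.694), and its sign turned without 48 h replicate 3 (0.066), without 72 h replicate 2 (0.032) and with library weights (0.017). HEY1 was at -0.36 ± 0.13 (limma adjusted p = 0.0583). It passed the threshold with a pseudocount of 0.1 (-1.20, adjusted p = 0.0269), with library weights (-0.40, 0.0176), with no trend in the prior variance (0.0428), among genes with a span (0.0469) and without 48 h replicate 3 (-0.49, 0.0101). Of the 6 tested members, 3 were thus called higher, where 9.17% of all tested genes were, and 1 lower, where 16.3% were. The count of 4 was 2 without 72 h replicate 1 and 2 without 72 h replicate 3.

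The genes around the members were described by lists written from textbook knowledge of the pathway, with 81 genes in 10 lists. Of these 78 were in the files and 66 were tested. SPEN, CTBP2 and HES7 were not analysed here. At 48 h against 0 h, 24 of the 66 were higher and 16 lower (limma adjusted p), where 27.6% of all tested genes were higher and 22.4% lower. Whether the shares of the pathway, or of any list in it, differ from those of all tested genes was not tested. The median log2 change of the 66 was 0.07, and that of all tested genes 0.02. The split depended on scaling, with 16 higher and 25 lower at equal FPKM sums, which shifted the median gene by -0.12, 19 and 18 under quantile normalization, and 20 and 18 with median-of-ratios size factors. At 72 h 23 were higher and 10 lower, where 23% and 22.5% of all tested genes were, with a median of 0.03 (-0.01 over all genes). At equal FPKM sums 17 were higher and 11 lower at 72 h, with a median of -0.02 (-0.06 over all genes). Quantile normalization and median-of-ratios size factors left 23 and 10. Between the treated times 5 were higher and 8 lower, with 12 and 7 at equal FPKM sums or under quantile normalization and 12 and 8 with median-of-ratios size factors. Over all tested genes 9.17% were higher and 16.3% lower there. That count of 13 was 26 without 48 h replicate 3. Of the 66, 4 genes (DLL1, DNER, NEURL1B and MAML3) reached the filter in libraries of 0 h alone or of the treated times alone and so had to differ. Without them 22 of 62 were higher and 14 lower at 48 h, 21 and 8 at 72 h, and 5 and 8 between the treated times. For these 4 genes the adjusted p given is that of limma without the filter, while the SE given is that of the fit with the filter.

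**Figure D4:**
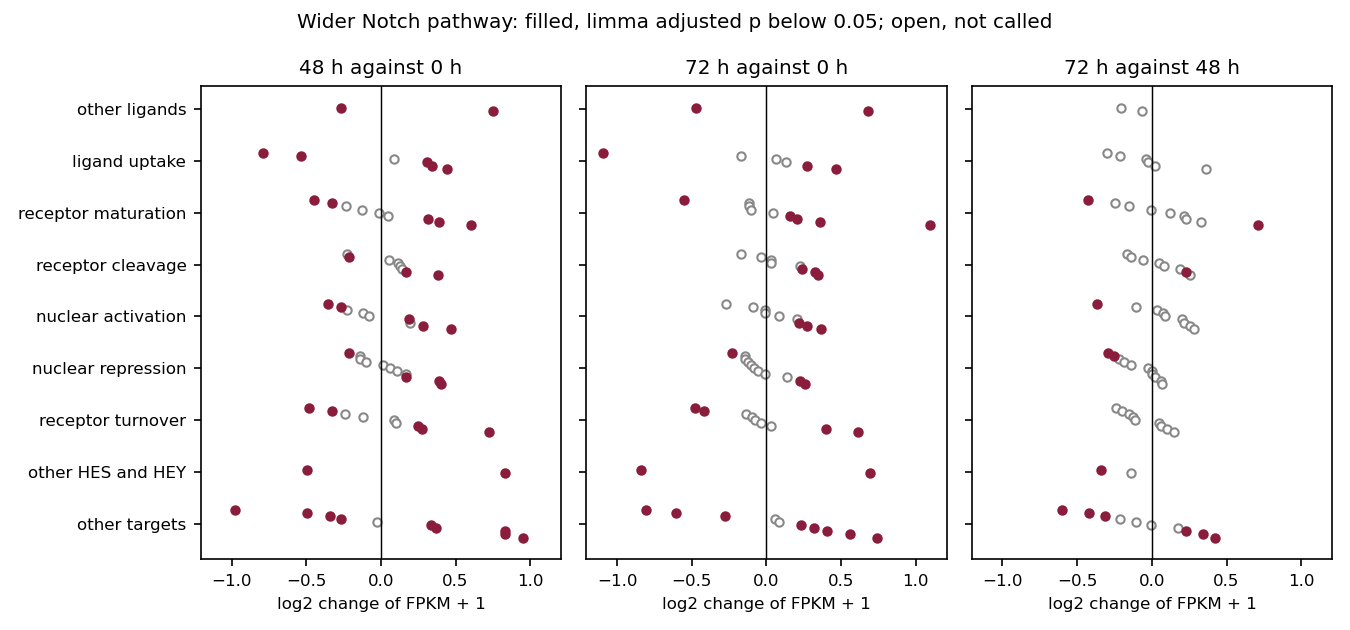
Log2 change of FPKM + 1 (horizontal axes) of the 66 tested genes of the wider pathway, by list, with 1 panel for each treated time relative to control and 1 for the later relative to the earlier treated time. Filled points passed a limma adjusted p of 0.05 over all genes and open points did not; against 0 h called genes lie on both sides of 0 in most lists, while between the treated times this holds for receptor maturation and other targets alone.

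Among the other ligands, 4 were too low to test. DLL4, the Delta ligand typical of endothelium, was listed at no more than 0.06 FPKM, and DLL3, DLK1 and DLK2 at no more than 0.20. DLL1, a Delta ligand, held 0.55, 0.46 and 0.32 FPKM at 0 h, 1.54, 1.51 and 1.23 at 48 h and 1, 1.76 and 1.24 at 72 h, and passed the filter through its treated libraries alone. The log2 changes were 0.75 ± 0.13 and 0.68 ± 0.13 (limma without the filter, adjusted p = 0.00322 and 0.00421). DLL1 was higher where JAG1 was lower, but at a far lower level, since JAG1 still made up 84.9% ± 3.72 of the summed JAG1, DLL1, DLL3 and DLL4 level at 48 h and 85.1% ± 5.84 at 72 h, from 98.6% ± 0.299 at 0 h (SD, n = 3). That sum was 37.1 ± 1.58 FPKM at 0 h, 9.95 ± 1.53 at 48 h and 9.34 ± 0.753 at 72 h. DNER, a non-canonical ligand of neurons, held 1.18 ± 0.0907 FPKM at 0 h and 0.570 ± 0.130 at 72 h (log2 change -0.47 ± 0.10; limma without the filter, adjusted p = 0.00299), and passed the filter through its 0 h libraries alone. Its difference at 48 h (-0.27 ± 0.10; limma without the filter, adjusted p = 0.0373) lost the call under 9 of 19 other settings, among them the omission of any 0 h or 48 h library and of 72 h replicate 1 (adjusted p up to 0.473).

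Ligands signal only when they are taken up with the receptor fragment they pull, which needs ubiquitin ligases of the Mindbomb and Neuralized families. NEURL1B held 1.56 ± 0.298 FPKM at 0 h, 0.473 ± 0.0777 at 48 h and 0.193 ± 0.0416 at 72 h (SD, n = 3), and passed the filter through its 0 h libraries alone. The log2 changes were -0.79 ± 0.10 and -1.10 ± 0.10 (limma without the filter, adjusted p = 4.18e-04 and 4.21e-05). MIB1 fell at 48 h by 0.53 on the log2 scale (adjusted p = 0.00547), with libraries at 7.18, 9.99 and 11.5 FPKM and a change of -0.36 without 48 h replicate 1. MIB2 rose by 0.47 ± 0.08 at 72 h (adjusted p = 5.31e-04). In this list 3 rose and 2 fell at 48 h, and 2 rose and 1 fell at 72 h, of 6 tested. Of all tested genes 27.6% rose and 22.4% fell at 48 h, and 23% rose and 22.5% fell at 72 h.

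Sugars added to the receptor in the Golgi and endoplasmic reticulum tune which ligand it answers. Of 9 tested maturation genes 3 rose and 2 fell at 48 h, and 4 rose and 1 fell at 72 h. The shares of all tested genes were 27.6% and 22.4% at 48 h, and 23% and 22.5% at 72 h. GXYLT2, a xylosyltransferase that extends O-glucose on Notch, held 2.20, 2.34 and 2.09 FPKM at 0 h, 2.74, 3.67 and 3.23 at 48 h and 5.25, 6.88 and 5.56 at 72 h. Its libraries rose in separate steps, by 1.10 ± 0.11 on the log2 scale at 72 h (limma adjusted p = 1.52e-05) and by 0.71 ± 0.11 from 48 h to 72 h (0.00126). The Fringe enzymes extend O-fucose on the receptor and shift its preference between Delta and Jagged ligands. LFNG was lower at 72 h than at 0 h by -0.55 ± 0.11 (limma adjusted p = 0.00186) and than at 48 h by -0.43 ± 0.11 (0.0176, but 0.0580 without 72 h replicate 3 and 0.0516 without the filter). RFNG, the most abundant Fringe gene, rose at 48 h by 0.61 ± 0.09 (4.80e-04), from 48.9 ± 2.65 to 75.4 ± 10.6 FPKM. MFNG was listed at no more than 0.08. POFUT1, which attaches the O-fucose, fell at 48 h by 0.45 on the log2 scale (SE 0.12, 0.0111).

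The receptor is cut in turn by ADAM proteases and gamma-secretase. Of 8 tested cleavage genes 2 rose and 1 fell at 48 h, and 3 rose and none fell at 72 h. Over all tested genes 27.6% rose and 22.4% fell at 48 h, and 23% rose and 22.5% fell at 72 h. APH1A, a gamma-secretase subunit, rose from 53.3 ± 1.87 FPKM to 69.7 ± 0.854 at 48 h (log2 change 0.38 ± 0.06, limma adjusted p = 6.65e-04) and 67.1 ± 5.12 at 72 h (0.33 ± 0.06, 0.00156). The 48 h call was lost with the span trend removed (0.10, 0.174). PSEN2, one of the catalytic subunits, rose by 0.34 ± 0.07 at 72 h (0.00190). ADAM10, which makes the first cut after ligand binding, was at -0.22 ± 0.07 at 48 h (0.0290), a call lost without each 0 h replicate, without 48 h replicate 1 or 2 and with the span trend removed (adjusted p up to 0.301).

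In the nucleus RBPJ, the DNA-binding partner of all Notch receptors, held 6.61 to 7.57 FPKM at 0 h and 7.75 to 9.25 at 72 h. Its change at 72 h was 0.27 ± 0.10 (limma adjusted p = 0.0387), which lost the call at equal FPKM sums (0.110), without the filter and without 0 h replicate 1 or 3 or 72 h replicate 2 or 3 (up to 0.125). Among the Mastermind coactivators MAML3, which passed the filter through 3 treated libraries alone, held 0.453 ± 0.0208 FPKM at 0 h and 1.01 ± 0.0900 at 48 h (0.47 ± 0.09; limma without the filter, adjusted p = 0.00142). Its change at 72 h was 0.36 ± 0.09 (0.00381). MAML2 was lower at 48 h by -0.36 ± 0.11 (0.0231), but not called without 0 h replicate 1 or 2, without 48 h replicate 1 (-0.22), without the filter or with the span trend removed (-0.19, 0.133). Of 9 tested activators 3 rose and 2 fell at 48 h, and 3 rose and none fell at 72 h. For all tested genes the shares were 27.6% and 22.4% at 48 h, and 23% and 22.5% at 72 h. KAT2A, a histone acetyltransferase, fell from 48 h to 72 h by 0.37 on the log2 scale (SE 0.07, limma adjusted p = 0.00441). It held 9.90 ± 0.344 FPKM at 0 h, 12.2 ± 0.462 at 48 h and 9.28 ± 0.728 at 72 h.

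Of 11 tested corepressor genes 3 rose and 1 fell at 48 h, and 2 rose and 1 fell at 72 h. Beside this list and that of receptor turnover, 27.6% of all tested genes rose and 22.4% fell at 48 h. At 72 h these shares were 23% and 22.5%. TLE3, a Groucho-family corepressor that HES proteins recruit, rose by 0.40 ± 0.08 at 48 h (limma adjusted p = 0.00193). Its change at 72 h was 0.26 ± 0.08 (0.0192), not called without 0 h replicate 3 or 72 h replicate 2. CTBP1 rose by 0.39 ± 0.06 at 48 h (6.14e-04). HDAC1, a histone deacetylase, was at -0.23 ± 0.07 at 72 h (0.0154), a call lost without 0 h replicate 1 or 3 or 72 h replicate 1. Among 9 tested genes of receptor turnover 3 rose and 2 fell at 48 h, and 2 rose and 2 fell at 72 h. NUMBL, a relative of the Notch inhibitor NUMB, rose from 19.7 ± 0.932 FPKM to 33.2 ± 2.60 at 48 h (0.72 ± 0.08, limma adjusted p = 4.59e-05) and 30.6 ± 2.56 at 72 h (0.61 ± 0.08, 9.87e-05). FBXW7, the ubiquitin ligase subunit that marks the active receptor for degradation, fell by 0.48 on the log2 scale at 72 h (SE 0.07, 3.85e-04). AAK1, a kinase of endocytosis, fell by 0.48 on the log2 scale at 48 h (SE 0.09, 0.00193).

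HEY2, the remaining HEY gene, was by far the most abundant of its family. It held 38.3, 38.4 and 39.5 FPKM at 0 h, 26.0, 27.4 and 28.4 at 48 h, and 21.9, 21.8 and 20.1 at 72 h. The 3 times did not overlap, and HEY2 fell by 0.49 on the log2 scale at 48 h (SE 0.06, limma adjusted p = 9.25e-05) and by 0.84 at 72 h (SE 0.06, 1.12e-06). Between the treated times it fell by 0.34 (SE 0.06, 0.00241). HEY2 made up 96.2% ± 0.578 of the summed HEY1, HEY2 and HEYL level at 0 h and 99.4% at 72 h. In the same libraries HES1 to HEY2 was 0.559 to 0.690 at 0 h, 0.430 to 0.455 at 48 h and 0.915 to 1.51 at 72 h, with no overlap between times. HES6, which encodes a HES relative that opposes HES1 in the developing mouse nervous system, rose from 7.40 ± 0.0252 to 14.0 ± 1.29 FPKM at 48 h (0.83 ± 0.13, limma adjusted p = 4.67e-04) and 12.8 ± 2.95 at 72 h (0.69 ± 0.13, 0.00129). HES5 and HELT were listed at 0.00 in all 9 libraries, and HES2 and HES3 at no more than 0.15.

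Among 10 other genes reported as Notch targets in various cell types, 5 rose and 4 fell at 48 h and 5 rose and 3 fell at 72 h. In all tested genes 27.6% rose and 22.4% fell at 48 h, and 23% rose and 22.5% fell at 72 h. TNC, an extracellular matrix glycoprotein, fell from 1082 ± 14.9 FPKM to 550 ± 45.0 at 48 h and 623 ± 90.8 at 72 h (-0.98 ± 0.10 and -0.81 ± 0.10; limma adjusted p = 3.24e-05 and 7.95e-05). SOX9, a chondrogenic transcription factor, rose from 1.41 ± 0.0493 to 3.67 ± 0.235 and 3.03 ± 0.401 FPKM (0.95 ± 0.09 and 0.74 ± 0.09; 1.79e-05 and 6.63e-05). From 48 h to 72 h SNAI1, a repressor of epithelial genes, fell by 0.60 (SE 0.06, limma adjusted p = 6.09e-05) and CCND1, cyclin D1, by 0.42 (SE 0.06, 5.71e-04), both on the log2 scale. MYC, a growth-promoting transcription factor, rose by 0.42 ± 0.07 (0.00297). MYC held 45.1 ± 0.586 FPKM at 0 h, 35.4 ± 0.469 at 48 h and 48.0 ± 5.56 at 72 h, lower at 48 h than at 0 h (-0.34, 0.00383), while its 72 h difference from 0 h was not called (0.08, 0.399). Each of these genes responds to many other signals.

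Profiles over the 9 libraries were compared by the root mean square difference of log2(FPKM + 1) after each gene's mean was subtracted. The closest to HES4 were KIF11 (0.15), CKAP2 (0.15), TOP2A (0.15), ANLN (0.16) and SGO1 (0.17), which encode a spindle motor, a spindle protein, a DNA topoisomerase, a cytokinesis scaffold and a protector of chromosome cohesion. KIF11, for example, held 31.7 ± 1.01 FPKM at 0 h, 10.2 ± 1.52 at 48 h and 5.03 ± 0.711 after 72 h. HES4 itself was low at 72 h, at a mean of 0.763 FPKM, where a pseudocount of 1 compresses the change. In mean FPKM HES4 was 11.2-fold lower at 72 h than at 0 h, against 6.30-fold for KIF11, 5.61-fold for TOP2A and 6.34-fold for ANLN. The closest to JAG1 were CYP1A1 (0.16), ENC1 (0.16), GDF6 (0.23), CRISPLD1 (0.25) and ADGRG1 (0.25). CYP1A1 was low, at means of 3.54, 0.230 and 0.0367 FPKM at the 3 times. A pseudocount of 1 compresses such levels, and the relative fall of CYP1A1 in FPKM was larger than that of JAG1. GDF6, a ligand of the BMP family, held 22.2 ± 2.53 FPKM at 0 h, 6.80 ± 0.816 at 48 h and 5.46 ± 0.616 after 72 h. The closest to NOTCH3 were RET (0.06), SPP1 (0.08), TMEM26 (0.12), SMURF2 (0.13) and HTR7 (0.14). RET was likewise low, at means of 2.53, 0.413 and 0.677 FPKM, with a larger relative fall than that of NOTCH3. SPP1, the secreted phosphoprotein osteopontin, held 217 ± 1.57, 85.8 ± 3.01 and 106 ± 8.97 FPKM. Between members the difference was 0.33 for JAG1 and HES4, 0.42 for JAG1 and NOTCH3 and 0.59 for NOTCH3 and HES4. Ranks were taken among the tested genes with a symbol, 9875 in all. In the order of likeness to JAG1, HES4 ranked 24, NOTCH3 69, HEY1 245, NOTCH2 1407 and HES1 2879. In that to NOTCH3, JAG1 ranked 992 and HES4 4551, and in that to HES4, JAG1 ranked 69 and NOTCH3 253. JAG1, NOTCH3 and HES4 were chosen for their fall at both treated times, so their likeness is a description.

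**Figure D5:**
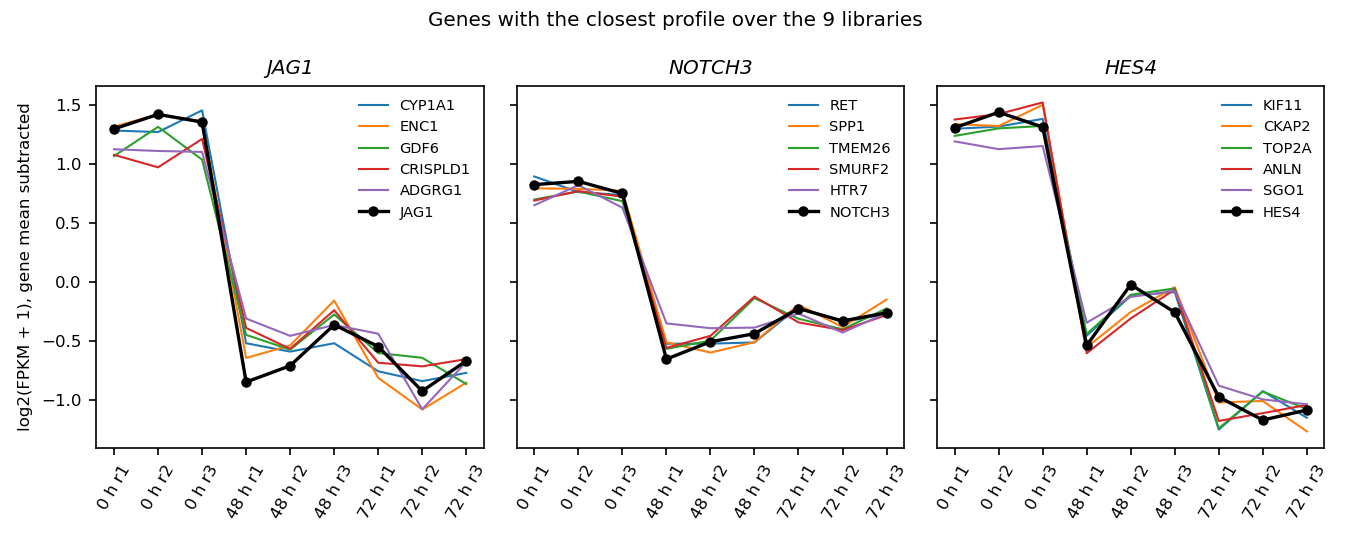
Profiles of log2(FPKM + 1) with the gene's mean subtracted (vertical axis) over the 9 libraries, r1 to r3 being replicates, for JAG1, NOTCH3 and HES4 in black and their 5 closest genes in colour. Lines only join the points of a gene; HES4 and its neighbours step down from 0 h to 48 h and again to 72 h, while JAG1 and NOTCH3 have 1 main step.

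Markers of cell division stepped down at each time, as did HES4, HEY1 and HEY2. HEY1 was at 0.64 FPKM or less in the treated libraries, and its change between the treated times was not called (limma adjusted p = 0.0583). All 17 tested mitosis genes of 20 listed fell in both comparisons with control and between the treated times (limma adjusted p). Their median log2 changes were -1.16, -2.06 and -0.94. Their summed level was 787 to 833 FPKM at 0 h, 343 to 364 at 48 h and 151 to 190 at 72 h. Of all tested genes 22.4%, 22.5% and 16.3% were lower in the same comparisons. The part of dividing cells in the levels of HES4, HEY1 and HEY2 was not tested.

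Markers of mural cells, in which NOTCH3 is best known, were also examined. Of 8 listed, 4 were tested, and all 4 fell at 48 h and at 72 h, with medians of -0.59 and -0.63. Among all tested genes 22.4% were lower at 48 h and 22.5% at 72 h. DES, the muscle intermediate filament desmin, dominated the summed level of the mural markers. That sum was 1564 to 1594 FPKM at 0 h, 956 to 1033 at 48 h and 886 to 1106 at 72 h. MCAM, an adhesion molecule, held 21.7 to 28.1 FPKM at 0 h, 11.9 to 14.2 at 48 h and 8.03 to 10.6 at 72 h. The pericyte markers RGS5 and HIGD1B were at or near 0 in all libraries (at most 0.09 FPKM), and ABCC9 and KCNJ8, at 0.10 to 0.29 at 0 h, reached 0.69 to 0.89 at 72 h. PDGFRB, counted here among the other targets and not the mural markers, held means of 97.7, 95.9 and 122 FPKM at the 3 times. It was not called at 48 h (-0.03, limma adjusted p = 0.748) and was higher at 72 h (0.32, 0.00196). The part of mural-like cells in the level of NOTCH3 was not tested.

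Endothelial markers, of which 7 of 9 were in the files and 3 were tested, summed to 14.7 to 15.0 FPKM at 0 h, 12.1 to 14.7 at 48 h and 18.3 to 20.2 at 72 h. TEK and KDR were at 0.10 or less. CLDN5, a tight junction gene, held 5.41 to 6.02 FPKM at 0 h, 1.45 to 1.55 at 48 h and 0.86 to 2.04 at 72 h, and ERG, a transcription factor, 7.99 to 8.55, 9.59 to 12.2 and 15.6 to 18.1. The summed epithelial markers were 8.05 to 9.37, 14.3 to 14.9 and 10.9 to 12.3 FPKM at the 3 times, mostly KRT8. Immune markers summed to means of 2.01, 4.44 and 4.69 FPKM, mostly CD14. Neural markers summed to 178 to 184, 204 to 251 and 183 to 193 FPKM, nearly all TUBB3 and NES, which cultured fibroblasts also express. Within that sum TUBB3 rose from 66.6 to 138 FPKM in mean at 72 h and NES fell from 112 to 48.9 (limma adjusted p = 3.37e-06 and 1.73e-05). Of the muscle markers, MYOD1 and PAX7 stayed at or below 0.20 FPKM, and MYOG, which passed the filter through its treated libraries alone, held means of 0.453, 1.28 and 1.15. The sum, 1424 to 1455, 860 to 940 and 792 to 996, was nearly all DES.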

How the data were processed

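Total RNA depleted of ribosomal RNA was sequenced from 9 libraries, 3 per time, per the labels' protocols. The deposited values are FPKM, 1 per gene ID, with 2 decimals, scaled by the authors per the file headers. Per the submitters' processing notes, Sscrofa11.1 was the build and the tools included RSEM 1.2.28, featureCounts 2.0.2, DESeq2 and HISAT2 2.1.0, with no role stated. Whether reads were counted by strand is not stated there. FPKM hold no counts, so precision comes from the spread between libraries (median SE of a log2 change 0.088).

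IDs were paired with symbols, and positions are those of RefSeq for Sscrofa11.1, looked up by symbol (found for 7 of 7 measured members). All libraries entered a fit on log2(FPKM + 1) by limma 3.58.1 under R 4.3.3, with time as a factor and a trend in the prior variance. Tests were two-sided with Benjamini-Hochberg adjustment over 11063 genes, called below 0.05. The code of the fit was checked on simulated data in which few genes changed, at 48 h alone. Far more genes were called in the real data, so that check does not give their error rates. The members, the lists of pathway and marker genes and the tests were chosen with earlier results of these data known. Named were all members, up to 2 called genes per list and comparison with 0 h, and the 6 pathway genes with the largest change between treated times; others, including markers and genes at or near 0, were named after their values were seen. Alternatives varied pseudocount, filter, scaling, gene span (84.1% of tested genes have one), variance model, weights, replicate block and libraries.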

Additional observations from a re-analysis of the deposited data

Results flagged for a closer look

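Several genes differed in their change from 0 h between 48 h and 72 h, by the limma test of 72 h against 48 h, which removes the shared control. Among the members the log2 difference was 0.95 for HES1 (adjusted p = 0.00215), -0.81 for HES4 (0.00118), 0.26 for NOTCH3 (0.0192) and 0.35 for NOTCH2 (0.0445). The NOTCH3 call was lost without 72 h replicate 1 or 3, and the NOTCH2 call without any single library other than 48 h replicate 3. MYC (0.42, adjusted p = 0.00297) was also higher at 72 h than at 48 h. Against 0 h the log2 values of HES1 were -0.92 and 0.02, and those of MYC -0.34 and 0.08.

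Of the pathway genes, GXYLT2 (0.71, adjusted p = 0.00126) and PSEN2 (0.23, 0.0307) rose further from 48 h to 72 h, and HEY2 (-0.34, 0.00241) fell further. LFNG (-0.43, 0.0176) and HDAC1 (-0.30, 0.0100) were lower at 72 h than at either earlier time, with 48 h changes from 0 h of -0.13 and 0.06 that were not called (adjusted p = 0.359 and 0.457). The LFNG call between the treated times was lost without 72 h replicate 3 (0.0580) and without the filter (0.0516). SNAI1 (-0.60, 6.09e-05), CCND1 (-0.42, 5.71e-04), CTBP1 (-0.25, 0.0155) and KAT2A (-0.37, 0.00441) were higher at 48 h than at 72 h.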

How the results depend on the processing

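Counts of called genes were mostly stable over 20 other settings, 1 of them (genes with a span, no trend removed) chosen after seeing the data. The 40 pathway genes called at 48 h were 30 to 42 when each library was left out in turn, and the 33 called at 72 h were 27 to 35. The 13 called between the treated times were 20 with median-of-ratios size factors, 30 with library weights and 9 to 26 with a library left out. The 4 members called there were 2 to 5 with a library left out. Members with all libraries below control at 72 h were 3 of 4 under a filter at a mean FPKM of 5, where fewer genes enter. The JAG1 difference between treated times, -0.07, was 0.017 with library weights, and -0.18 to 0.066 with a library left out. Changes of the other members, and of pathway genes in the comparison for which the rule named them, kept their direction in each setting run. The exception was HES1 at 72 h against 0 h (-0.19 to 0.21). Changes of PSEN2, CTBP1, HDAC1 and HEY2 between the treated times, of MYC and PDGFRB from 0 h and of marker genes were not followed over the settings. Deviations of same-numbered libraries from their group mean had correlations of -0.07 to 0.19 over 9 pairs, and those of other pairs -0.18 to 0.17. With 3 libraries per time, such deviations cannot exclude that the numbers pair the libraries. With the replicate block the counts were 41, 32 and 15 pathway genes and 4 members. Leaving out a library leaves 2 in its group, and without counts no depth interval could be given, so levels of a few hundredths of an FPKM have unknown error.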
